A study of Mus musculus with 12 samples.

Results

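Genes for 7 splicing regulators other than the RbFox family were examined for RbFox1 eCLIP peaks: PTBP1, PTBP2, MBNL1, MBNL2, QKI, CELF1 and TIA1. The 7 genes were listed by name, as splicing regulators with RbFox1 binding, when earlier results of these data were known, so that each has peaks is not a finding. A peak was counted for a gene when it overlapped the hg38 span given for that gene by at least 1 nt on the gene's strand. The spans were not checked against a human annotation here. All 7 genes had peaks, from 3 on TIA1 to 15 on PTBP2, and together they held 81 of the 24831 human peaks deposited. With peaks that abut joined into 1, QKI had the most, 12, followed by PTBP2 and MBNL1 with 9 each, MBNL2 with 7, PTBP1 and CELF1 with 6 each and TIA1 with 3.

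The peaks came from T-REx-293 cells, a human embryonic kidney (HEK293) line in which RbFox1 is made when doxycycline is added. The cells were the clone 77-5, which also carries the mouse TrkB-BAC minigene, an Ntrk2 construct on a bacterial artificial chromosome. The list compared 2 immunoprecipitated libraries of these cells given doxycycline (+Dox; 48 h, at 0.5 mg/ml by the labels, while the figure legends give μg/ml) with 2 libraries of the same cells without treatment (No Dox). Both sides were the same single clone, so they shared the minigene and the genetic background, and RbFox1 was made from a transgene in a kidney line. A further 2 libraries of the clone 32-1, whose minigene lacks Cluster 1 and Cluster 2, do not enter this list. The deposited values compare +Dox with No Dox, not with the 6 input libraries. Whether the input libraries were used to select the peaks listed is not stated in the sources used here. In eCLIP, ultraviolet light crosslinks proteins to RNA, an antibody pulls down 1 protein with its RNA fragments, and the fragments are sequenced. The authors deposited 1 log2 fold enrichment and 1 −log10 p for each peak, merged over replicates, so neither a value for each library nor a replicate error can be given, and the read depth is unknown. Every value of a single peak below is the authors', no test between peaks or genes was run, and differences between peaks could not be set against replicate error. Labels do not say whether the 2 libraries of a group came from separate cultures.

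RbFox proteins bind the sequence UGCAUG in RNA and, from introns, promote or repress the use of nearby exons; in 3′ untranslated regions they are also known to affect mRNA stability. The genes described here encode RNA-binding proteins that do similar work at other sequences. Many splicing regulators also control the RNA of other splicing regulators, or their own, often through exons whose inclusion or skipping leads to decay of the mRNA. PTBP1 and PTBP2 bind pyrimidine-rich RNA and mostly repress exons, PTBP1 in most tissues and PTBP2 in neurons. MBNL1 and MBNL2 are the muscleblind proteins, which are trapped on CUG repeats in myotonic dystrophy. CELF1 binds GU-rich RNA and opposes the muscleblind proteins on a number of exons. QKI, a STAR-family protein, acts in myelinating glia, muscle and epithelial cells, and TIA1 binds U-rich RNA beside weak 5′ splice sites and is a component of stress granules.

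Peaks lay toward the 3′ part of most of these genes. Measured from the 5′ end of the span to the middle of the peak, 4 of the 81 peaks lay in the first 50% of their gene, 2 on MBNL1 and 2 on MBNL2. In the last 10% of the span lay 37 peaks, which were all 14 peaks of QKI, all 14 of CELF1 and 9 of the 11 of MBNL1. With peaks that abut joined, the 14 of CELF1 were 6 and the 14 of QKI were 12. The same shares over all human peaks were not computed, so these positions cannot be called particular to the 7 genes. No peak of the list lay on the opposite strand of any of the 7 spans. The peaks covered 5654 nt of the 815414 nt of the spans. Per length of gene, PTBP1 had the most peaks, 8.52 per 10 kb over a span of 15.3 kb. The other genes had between 0.496 per 10 kb on MBNL1, with a span of 222.0 kb, and 1.47 per 10 kb on PTBP2, with a span of 102.1 kb. Exon and intron borders were not used here, so no peak is assigned to an exon, an intron or an untranslated region.

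**Figure D1:**
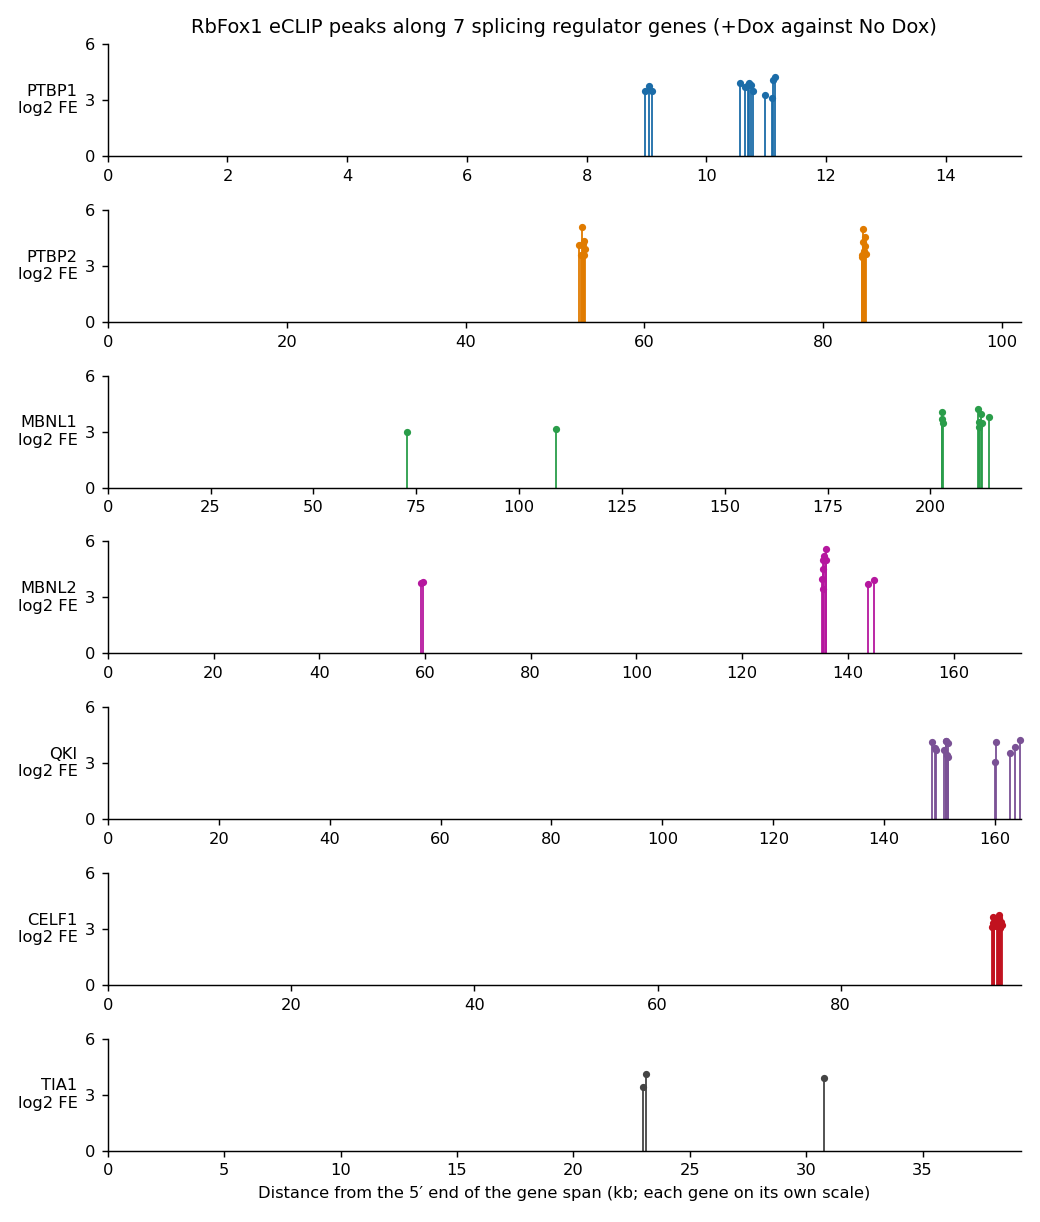
Position of the 81 RbFox1 eCLIP peaks on the 7 genes. Each panel is 1 gene, the horizontal axis is the distance in kb of the middle of a peak from the 5′ end of the gene span (a scale of its own for each gene), and the height of each line is the log2 fold enrichment (log2 FE) of the peak, +Dox against No Dox. The 14 peaks of CELF1 stand together near the 3′ end, those of PTBP2 form 2 bundles, and MBNL1 has 2 single peaks far upstream of the other 9.

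The log2 fold enrichment of the 81 peaks as a set was close to that of the whole list. Their median was 3.73 (quartiles 3.44 and 4.07), a 13.2-fold enrichment, and that of all 24831 peaks was 3.68 (quartiles 3.33 and 4.14). With MBNL2 left out the median of the others was 3.67, just under that of the list. A stricter threshold, 4 for the log2 fold enrichment and 1e-05 for p, was passed by 24 of the 81 peaks, or 29.6%, beside 29.0% of the list, so the share was near the background. The genes differed among themselves. PTBP2 had the highest median, 4.03, followed by MBNL2 with 4.0, TIA1 with 3.87, QKI with 3.85, PTBP1 with 3.77, MBNL1 with 3.50 and CELF1 with 3.33. This order depends on how peaks are counted. With only the highest peak of each group, PTBP2 had a median of 5.02, QKI 4.11, PTBP1 4.01, TIA1 3.995, MBNL2 3.87, MBNL1 3.79 and CELF1 3.73. MBNL2, whose enriched peaks lie in 1 group, thus moved from rank 2 to rank 5. These medians rest on 1 group for CELF1, 2 each for PTBP1, PTBP2 and TIA1, 4 for MBNL2, 5 for MBNL1 and 7 for QKI. The highest value of a group also depends on how many peaks it holds. The ranges of all 7 overlapped that of at least 1 neighbour in the order over all peaks, and with no replicate error neighbouring genes in it cannot be separated. The highest peak of CELF1, at 3.73, was nevertheless lower than the medians over all peaks of PTBP2, MBNL2, TIA1, QKI and PTBP1.

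**Figure D2:**
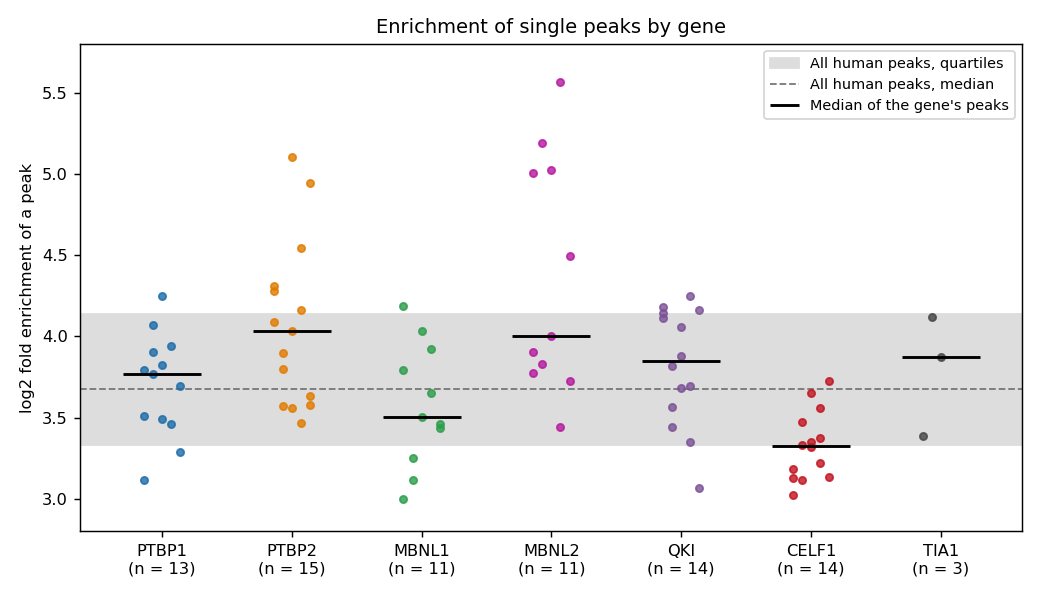
Log2 fold enrichment of every peak on the 7 genes. Points are single peaks as deposited, black bars are the median of a gene, the dashed line is the median (3.68) and the grey band the quartiles (3.33 to 4.14) of all 24831 human peaks. CELF1 lies lowest, with 1 of 14 points above the dashed line, and MBNL2 and PTBP2 reach highest, to 5.56 and 5.10.

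The −log10 p of the same peaks gave another order. It grows with the number of reads as well as with enrichment. The median was 21.3 over the 81 peaks and 10.2 over the list, and 59 of the 81 lay above the list's median. It was highest on PTBP1, at 58.0, and then 33.3 on CELF1, 27.4 on TIA1, 23.1 on PTBP2, 17.2 on MBNL1, 10.5 on MBNL2 and 8.54 on QKI. CELF1 thus ranked 7 of 7 by median enrichment and 2 of 7 by median −log10 p, and MBNL2 ranked 2 and 6. All 13 peaks of PTBP1 and all 14 of CELF1 exceeded the list's median −log10 p, and 3 of the 14 of QKI did. Spearman's rho between both values was -0.079 across the 81 peaks and 0.296 across the list. Within single genes rho was 0.645 on MBNL2, 0.5 on TIA1 (3 peaks), 0.314 on PTBP2 and 0.218 on MBNL1. It was 0.105 on PTBP1, 0.077 on QKI and -0.345 on CELF1, so the value across the 81 peaks does not describe each gene. All these are descriptions, since neighbouring peaks share reads and both values come from the same counts. How abundant the 7 transcripts are in these cells was not analysed here, and its part in these values was not tested.

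**Figure D3:**
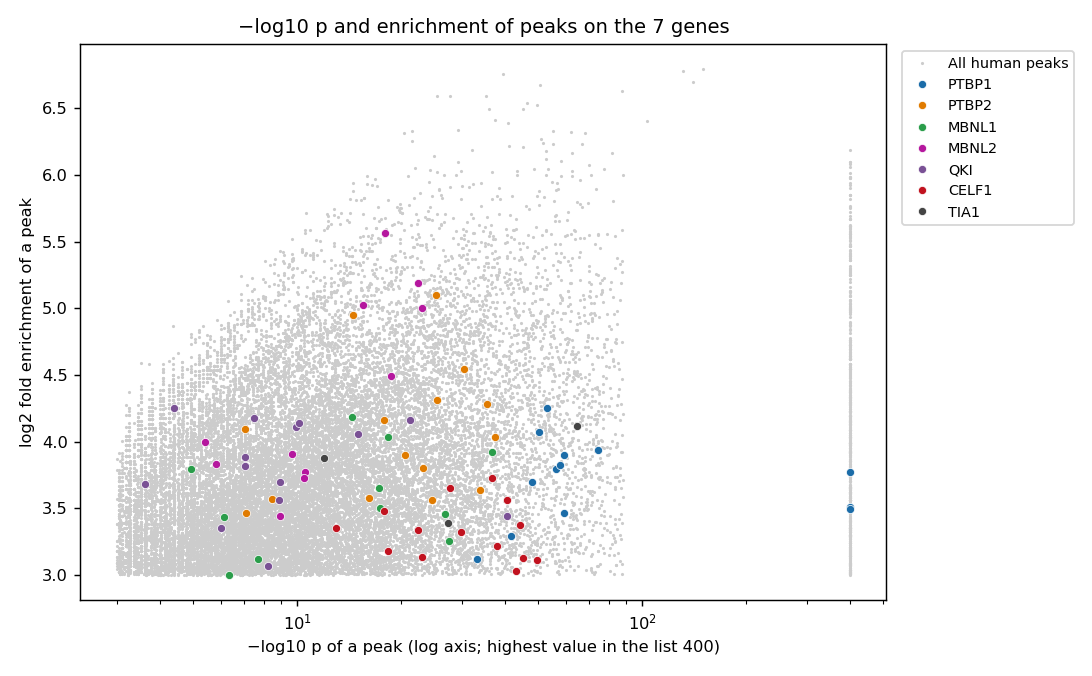
Log2 fold enrichment against −log10 p (log axis) for every human peak (grey) and for the peaks of the 7 genes (coloured by gene). PTBP1 and CELF1 lie to the right, CELF1 at low enrichment, QKI mostly to the left, and 3 peaks of PTBP1 stand at 400, the highest −log10 p in the list.

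When neighbours on a strand were grouped up to a distance of 500 nt, the 81 peaks formed 23 groups, of which 10 were single peaks (43.5%, beside 46.7% of all human groups) and 7 held at least 4 (30.4%, beside 21.8%). Counted over peaks, these 7 groups held 57 of the 81 peaks, or 70.4%, beside 52.2% of all human peaks. The genes were chosen with earlier results of these data known, and the part of that choice in this difference was not tested. Leaving out each gene in turn, the share ran from 63.6% without PTBP2 to 76.1% without QKI. A peak began on the base after the previous one in 29 of 81 cases (35.8%, beside 24.4% in the list), and such peaks can be parts of 1 stretch that the peak caller split. PTBP2 and CELF1 had all their peaks in groups of at least 4.

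**Figure D4:**
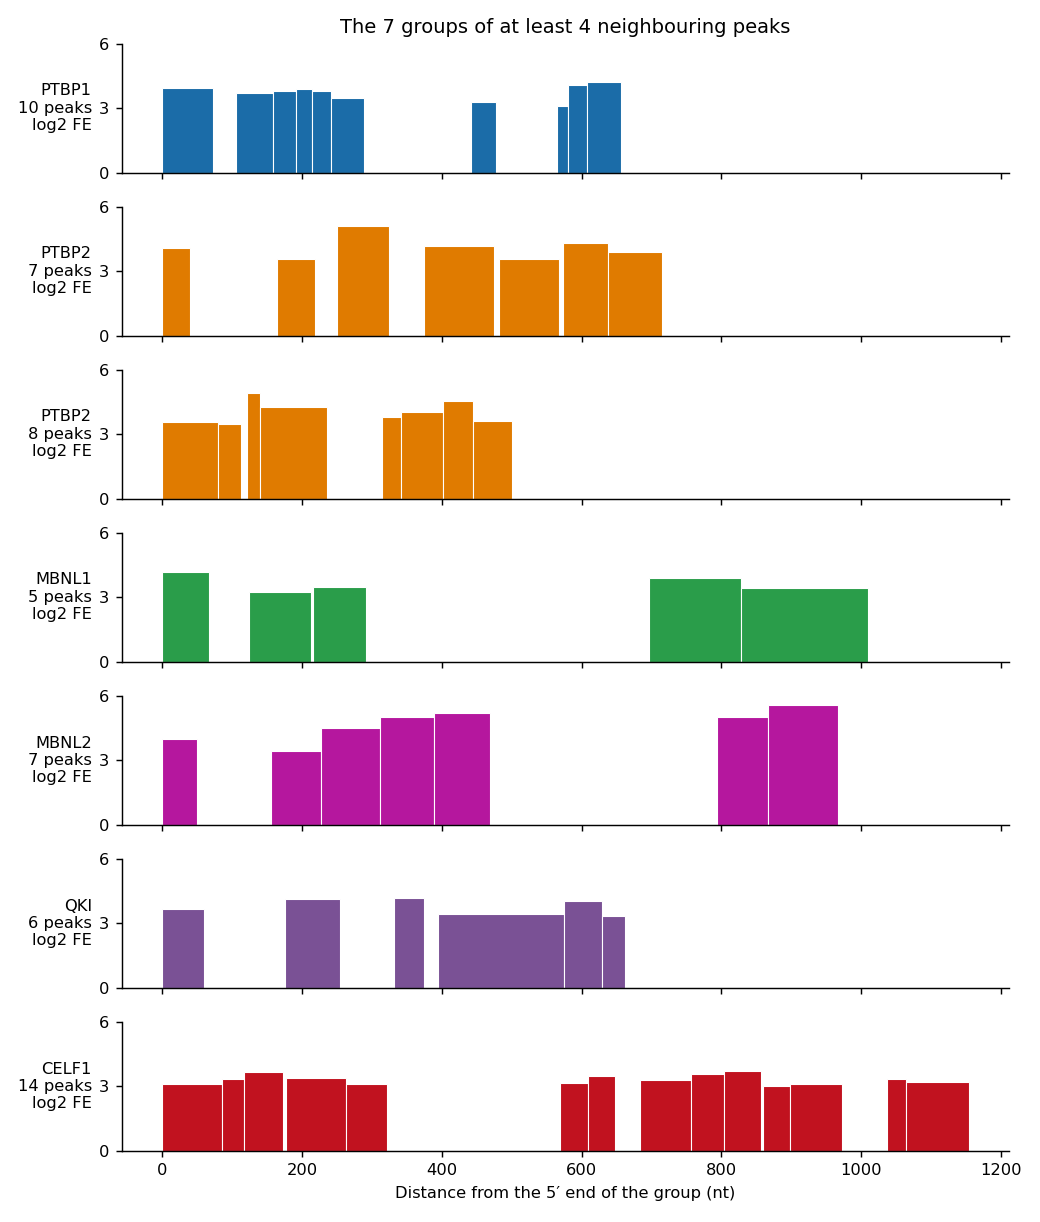
The 7 groups of at least 4 neighbouring peaks, aligned at their 5′ ends. Each bar is 1 peak, drawn to its width in nt along the horizontal axis, with its log2 fold enrichment (log2 FE) as height. Bars of CELF1 stay between 3.03 and 3.73, and those of MBNL2 reach 5.56 at the 3′ end of the group.

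PTBP1 (chr19:797075-812327, + strand) had 13 peaks in 2 groups, within 2245 nt that began 8931 nt from the 5′ end of the span. The first group held 3 peaks in 201 nt, at chr19:806006-806101, chr19:806108-806143 and chr19:806144-806206. Their log2 fold enrichments were 3.51, 3.77 and 3.49, and all 3 had a −log10 p of 400. This value was reached by 2.05% of the list, and the next lower value in the list was 150.5, so 400 marks an upper limit and the 3 peaks cannot be ranked by p. They were the only peaks at this value among the 7 genes.

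The second group of PTBP1 lay 1387 nt further downstream, at chr19:807594-808250, and held 10 peaks in 657 nt. At least 10 peaks in a group were seen in 189 of the 9787 human groups (1.93%). With peaks that abut joined, the 10 were 4 stretches, and the groups of the list were not counted in joined stretches. From 5′ to 3′ the log2 fold enrichment was 3.94, 3.70, 3.79, 3.90, 3.83, 3.46, 3.29, 3.12, 4.07 and 4.25. It thus stayed within a narrow range over the first 5 peaks, was lowest at the eighth, the 15 nt at chr19:808159-808173, and was highest at the last, chr19:808202-808250, where it was 19.0-fold. The last 3 peaks abut, so the lowest and the highest values of PTBP1 lie within 92 nt of contiguous sequence. The −log10 p of the 10 peaks ran from 33.1 to 74.6. The median log2 fold enrichment was 3.81 here and 3.51 in the upstream group, opposite to the order of the −log10 p.

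PTBP2 (chr1:96721665-96823738, + strand), the neuronal counterpart of PTBP1, had 15 peaks in 2 groups that were 30864 nt apart. The upstream group, at chr1:96774352-96775066, held 7 peaks in 715 nt, near the middle of the span. From 5′ to 3′ their log2 fold enrichments were 4.09, 3.57, 5.10, 4.16, 3.58, 4.31 and 3.90. The highest, at chr1:96774602-96774676, was 34.3-fold and exceeded 96.6% of the list. The −log10 p of this group ran from 7.05 at its first peak to 25.5 at chr1:96774925-96774988.

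The downstream group of PTBP2, at chr1:96805931-96806431, held 8 peaks in 501 nt, of which they covered 82.4%. The log2 fold enrichments were 3.56, 3.47, 4.95, 4.28, 3.80, 4.03, 4.54 and 3.63 from 5′ to 3′. The peak of 4.95 was only 19 nt wide, and the peak with the highest −log10 p of the gene, 37.6, was that at chr1:96806272-96806331 with an enrichment of 4.03. Both groups of PTBP2 thus held a maximum, of 5.10 and 4.95, directly flanked by peaks of 3.47 to 4.28, and their medians were 4.09 and 3.92. The median −log10 p was 17.9 in the upstream and 27.6 in the downstream group. Of the 15 peaks, 8 passed the stricter threshold (53.3%), against 2 of the 13 of PTBP1 (15.4%) and 29.0% of the list. Each gene has only 2 groups, and 6 peaks of PTBP2 and 7 of PTBP1 abutted the one before, so these are not counts of separate sites.

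MBNL1 (chr3:152243828-152465780, + strand) had 11 peaks in 5 groups. A single peak at chr3:152316419-152316503 had a log2 fold enrichment of 3.0, at the lower limit of the list, and the next, at chr3:152352844-152352967, had 3.12. Both stood alone, 72591 and 109016 nt from the 5′ end of the span, and a gap of 93609 nt separated the second from the other 9 peaks. Those 9 were all more enriched than the first 2, from 3.25 to 4.19.

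The 9 downstream peaks of MBNL1 stood in 3 places. A group of 3 at chr3:152446577-152446817 had log2 fold enrichments of 4.03, 3.65 and 3.44, and a group of 5 at chr3:152455375-152456384 had 4.19, 3.25, 3.50, 3.92 and 3.46. In both, the peak nearest the 5′ end was the most enriched. The highest −log10 p of the gene, 36.6, was that of the fourth peak of the group of 5, chr3:152456072-152456202. The last peak, at chr3:152458112-152458154, stood alone 7626 nt from the 3′ end of the span, with an enrichment of 3.79 and the lowest −log10 p of the gene, 4.92.

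MBNL2 (chr13:97221434-97394120, + strand), its paralog, also had 11 peaks, in 4 groups, and held the most enriched of all 81. The first 2 peaks, at chr13:97280612-97280698 and chr13:97280977-97281040, had log2 fold enrichments of 3.77 and 3.83. After a gap of 75414 nt came a group of 7 peaks in 967 nt, at chr13:97356455-97357421. From 5′ to 3′ the enrichments of this group were 4.0, 3.44, 4.49, 5.00, 5.19, 5.02 and 5.56. They were higher in the downstream part of the group, where the last 4 peaks were all at 5.00 or above, and the last, at chr13:97357321-97357421, was 47.3-fold and exceeded 99.0% of the list.

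The 4 peaks of MBNL2 outside this group lay between 3.73 and 3.91, close to the median of the list, and 2 of them, at chr13:97365101-97365219 and chr13:97366309-97366393, followed the group at 7679 nt and more. The −log10 p of the 7 peaks of the group ran from 5.42 to 23.0, the highest at chr13:97356766-97356842, and that of the other 4 from 5.82 to 10.5. The first peak lay at 32.7% of the span on MBNL1 and at 34.3% on MBNL2, 72591 and 59178 nt from the 5′ end. That of MBNL1 was the peak at the lower limit of the list. The genes were not aligned, so these peaks cannot be called matching sites. The last 10% of the span held 9 peaks of MBNL1 and 0 of MBNL2.

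CELF1 (chr11:47465933-47565569, − strand) had 14 peaks in a single group, at chr11:47467928-47469081. The group spanned 1154 nt, 1.16% of the gene, and ended 1995 nt before the 3′ end of the span. Groups of at least 14 peaks numbered 43 of 9787 in the list (0.439%). The peaks were joined into 6 stretches, since 8 of the 14 abutted the one before. This group had the most peaks on the 7 genes and, among the 7 groups of at least 4, the lowest median enrichment.

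The log2 fold enrichments of CELF1 ran from 3.03 at chr11:47468184-47468222 to 3.73 at chr11:47468225-47468277. These extremes were neighbours, with 2 nt between them, so the values of the group did not change steadily along the RNA. The first peak from the 5′ side, chr11:47468997-47469081, had 3.13 with a −log10 p of 45.2, and the last, chr11:47467928-47468017, had 3.22 with 37.9. The highest −log10 p, 49.7, was that of chr11:47468109-47468183, whose enrichment of 3.11 was the second lowest of the 14. Of the 14 peaks, 1 lay above the list's median log2 fold enrichment and 0 reached 4, beside 7802 of the 24831 peaks of the list. The 14 peaks form 1 group of 6 stretches, so these are not counts of separate sites.

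QKI (chr6:163414000-163578592, + strand) had 14 peaks in 7 groups, all in the last 16095 nt of a span of 164.6 kb. Of the 14, 4 stood alone. The largest group, at chr6:163564828-163565489, held 6 peaks with log2 fold enrichments of 3.69, 4.16, 4.18, 3.44, 4.06 and 3.35. It included the highest −log10 p of the gene, 40.6, at chr6:163565223-163565402, which at 180 nt was the widest peak of QKI but had the third lowest enrichment. Outside this group the −log10 p was at most 10.1.

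The first peak of QKI, chr6:163562498-163562568, had a log2 fold enrichment of 4.11, and the next 2, 512 nt further on, had 3.82 and 3.68. Downstream of the largest group came a pair with enrichments of 3.07 and 4.14 and then 3 single peaks with 3.57, 3.88 and 4.25. The last of them, chr6:163578372-163578436, ended 156 nt before the 3′ end of the span and was the most enriched of the gene, 19.0-fold, with a −log10 p of 4.40. Enrichment and −log10 p thus had their highest values at different peaks, 12969 nt apart.

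TIA1 (chr2:70209444-70248660, − strand) had the fewest peaks, 3. From 5′ to 3′ they were chr2:70225625-70225741 with a log2 fold enrichment of 3.39 and a −log10 p of 27.4, chr2:70225446-70225615 with 4.12 and 64.7, and chr2:70217827-70217932 with 3.87 and 11.9. The first 2 lay 9 nt apart, and the third 7513 nt downstream of them. The middle peak was both the most enriched and the one with the highest −log10 p, and outside PTBP1 its −log10 p was not reached by any peak of the other genes. The 3 peaks were 106 to 170 nt wide, against a median of 70 nt over the 81.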

How the data were processed

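RbFox1 eCLIP was done on 2 +Dox and 2 No Dox immunoprecipitated libraries of the clone 77-5. The authors removed molecular identifiers, adapters and repeat-derived reads, mapped to hg38 and the minigene with STAR, collapsed duplicates and used CLIPper as peak caller. The values deposited for a peak are a −log10 p, from a chi-square test with Yates' correction or, at low counts, an exact test of Fisher, and a log2 fold enrichment of +Dox over No Dox, from counts normalized to the library total. The name of the deposited list carries IDR (irreproducible discovery rate), a measure of how well replicates match. The paper also describes an enrichment of each peak over a paired input library. The settings of the IDR step are not given in the sources used here. Nor are any use of the input libraries in selecting the listed peaks and the treatment of reads with several positions. PTBP1 and PTBP2, and MBNL1 and MBNL2, are paralogs.

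The human list was read with Python 3.11.15 and pandas 2.3.3; 2 minigene lists were not used. Positions were converted to count from 1. Rank correlations used scipy 1.17.1 and plots matplotlib 3.10.9. Counting and grouping were tested on simulated data. No human sequence or annotation was used, so motifs and gene regions were not analysed. The genes and settings were chosen with earlier results of these data known. The rule for named peaks was, in each gene, the most enriched, that with the highest −log10 p, the first and last, the largest group, and all peaks of a gene with 5 or fewer; other peaks were added after their values were seen. Alternatives were thresholds, overlap, joining of abutting peaks, distance within a group, weighting and leaving out each gene.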

Additional observations from a re-analysis of the deposited data

How the results depend on the processing

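No paired analysis was possible because the list holds 1 merged value per peak, and no replicate could be left out for the same reason. Of the 81 peaks, all remained when a peak had to lie wholly inside the span and when spans were widened by 5000 nt. All also remained at a log2 fold enrichment of 3 with a p of 0.001. None of these settings had a peak to remove or add. The threshold could remove none, since the lowest values in the whole list were 3.00002 for log2 fold enrichment and 3.00408 for −log10 p. A log2 fold enrichment of 4 with a p of 1e-05 left 24 peaks in 10 groups with a median of 4.18, lower by construction for counts and higher for the median (list 4.43), and joining abutting peaks left 52. The opposite strand held 0. The number of groups was 32 at 100 nt and 20 at 1000 nt; CELF1 then had 2 groups at 100 nt, MBNL2 7 in place of 4, and QKI 4 in place of 7 at 1000 nt. The median log2 fold enrichment was 3.73 weighted by width and 3.91 over the highest peak of each group (list 3.67 and 3.78). It was 3.70 without PTBP2, 3.77 without MBNL1, 3.67 without MBNL2 and 3.83 without CELF1, and 3.73 without each of the other 3. Leaving out genes for the −log10 p and for the share in groups was added after the data were seen. The median −log10 p was 17.9 without PTBP1, 20.0 without PTBP2, 22.7 without MBNL1, 23.8 without MBNL2, 24.6 without QKI, 18.0 without CELF1 and 20.9 without TIA1. The motif alternative was not run, since no human sequence was used. The unknown depth limits every value, and a site absent from the list may have had too few reads.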
